A study of Mus musculus with 23 samples.

Results

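The hearts described here are the 8 wild-type libraries of a series of 23 libraries from mouse hearts at embryonic day 13.5. They were taken by genotype label, as the C57BL/6 embryos with the wild-type allele of GRK2, GRK5 and GRK6 on both chromosomes and no Cre transgene, and no genotype is compared here. These 3 genes encode kinases of G-protein coupled receptors, which are targeted in the other 15 libraries of the series. Each library was made from total RNA of a flash-frozen heart, depleted of ribosomal RNA, read from 1 end and not specific to a strand, so that a gene and its antisense or overlapping neighbour cannot be told apart. The label numbers the 8 libraries as replicates 1 to 8, called hearts 1 to 8 below, but does not say that each was a separate embryo. Their library IDs fall into a set of 4, IDs 19 to 22 (hearts 5 to 8), and a set of 4, IDs 1 to 4 (hearts 1 to 4).

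At this stage the mouse heart has ventricles, atria, septa and valve primordia, beats, and carries blood cells in its chambers. Working muscle of both chambers is built from sarcomeres, in which myosin heavy and light chains pull on actin under the control of the troponins, and several of these proteins have chamber-specific or fetal versions. Endocardium lines the cavities, cushion mesenchyme derived from it forms the valves, epicardium covers the surface and sends cells into the wall, and coronary vessels, nerves and conduction tissue are being added.

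The total count per library ran from 3838166 in heart 4 to 14050559 in heart 8. A gene with no count could be present at up to 0.214 CPM (counts per 1e6 counts) in heart 8 and up to 0.782 CPM in heart 4, the level of 3 counts, which covers counting error only. Heart 2 stood apart. It had counts for 20249 genes, against 15271 to 17178 in the other 7 hearts, and 1709 genes had counts in heart 2 alone, against 23 to 107 for each other heart. Among the olfactory receptor genes, which are not known for a role in heart muscle, 634 of 1122 had a count in heart 2, against 19 to 88 elsewhere. These extra genes were low, with a median of 2 counts and a maximum of 13. Heart 7 had the fewest genes with a count, 15271 from a total of 4912872 counts. Hearts 1 and 4 had 16880 and 16766 from smaller totals of 4436834 and 3838166 counts. Whether this bears on the low values and values of 0 named for heart 7 below was not tested. Y-linked transcripts (Ddx3y, Eif2s3y, Kdm5d and Uty together) held 1172, 783, 392 and 305 counts in hearts 8, 3, 4 and 7 and 3 to 15 counts in the others, while Xist held 1947 to 2889 counts in hearts 1, 2, 5 and 6 and 97 to 352 in the rest. Female-type and male-type libraries thus occurred 2 and 2 in each ID set.

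Between pairs of hearts, Pearson's r of log2(FPKM + 0.1) over 20775 protein-coding entries ran from 0.952 to 0.989, a description across genes that are not independent. FPKM is fragments per kilobase of transcript, scaled to the mapped reads of a library, a level per length. No pair of libraries agreed as closely as 1 library sequenced again would, since the smallest chi-square per degree of freedom was 5.95. In all, 13595 of 23880 entries had a mean of at least 1 FPKM, and 12023 reached 1 FPKM in every heart. Without heart 2 the first number was 13518. Of these entries 12413 were protein-coding and 522 long noncoding. A mean of at least 100 FPKM was reached by 1025 entries, and at least 1000 FPKM by 259 entries, of which 98 were protein-coding and 99 small nucleolar, Cajal body or spliceosomal RNAs. The median protein-coding entry stood at 2.92 FPKM.

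The most counted single gene was Ttn, the giant spring protein of the sarcomere, with 3.05% of all counts on average (2.33% to 3.47%). It is also among the longest transcripts, and per length it stood at 228 to 338 FPKM. The RNA components of RNase MRP and RNase P, Rmrp and Rpph1, followed with 1.74% and 1.67% of counts, and then Myh7 (1.30%) and the imprinted noncoding RNA gene H19 (1.27%). The 25 most counted genes together took 18.2% ± 1.21 of counts (SD, n = 8), and the 25 most counted protein-coding genes 13.2%. Igf2r, the receptor that clears IGF2, and Igf2, the fetal growth factor itself, ranked 13 and 19 by counts. H19 had 5177 ± 729 FPKM (mean ± SD over the 8 hearts, as in all FPKM values with ± below) and its imprinted neighbour Igf2 had 734 ± 162 FPKM, with heart 1 highest for Igf2 at 1107.

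The entries with the highest FPKM were all short. Snord12, a small nucleolar RNA that guides methylation of ribosomal RNA, had a mean of 1156960.0 FPKM, and the minor spliceosome RNAs Rnu11 and Rnu12 had 865831 and 640528 FPKM. Snord111, Snord83b, Snord22, Snord104 and the mitochondrial tRNA mt-Tp completed the 8 highest entries. These transcripts are short against the 50 nt reads, where division by a small effective length can give very large FPKM values. By counts, all 132 small nucleolar, Cajal body and spliceosomal RNA genes took 1.34% to 2.26% of a library, the 37 genes of the mitochondrial genome 0.394% to 0.689%, and 102 ribosomal protein genes 4.09% to 5.49%.

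**Figure D1:**
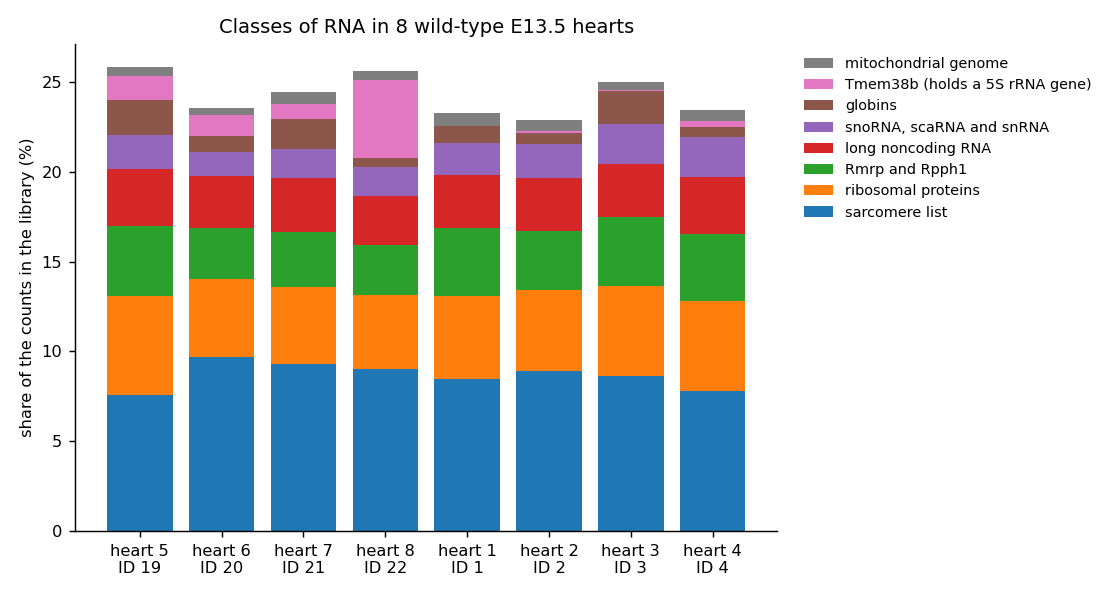
Share of all counts (%) taken by 8 classes of RNA in each wild-type heart, as stacked bars from 0, with hearts 5 to 8 (IDs 19 to 22) left of hearts 1 to 4 (IDs 1 to 4). The sarcomere genes take 7.59% to 9.70% in every heart, while Tmem38b ranges from 0.0161% in heart 1 to 4.29% in heart 8 and the counted globin genes from 0.534% to 1.93%. The remaining counts, mostly of other protein-coding genes, are not drawn.

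Among nuclear protein-coding genes the 20 highest by mean FPKM fell into 5 kinds. Globins were represented by Hba-a1, Hbb-y, Beta-s and Hbb-b1. Sarcomere genes were Myl2, Myl7, Actc1, Myl4, Tpm1, Tnnc1 and Myl3, and translation genes included Rpl41, Rplp1, Eef1a1 and Rps28. The histone H4 genes Hist1h4d, Hist1h4c and Hist1h4f had means of 3594, 2878 and 2819 FPKM, and are uncertain because the H4 genes are near-identical copies that can share reads. Eef1a1, which delivers aminoacyl tRNA to the ribosome, stood at 3759 to 5250.2 FPKM.

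The remaining entry was Tmem38b, a channel gene of the sarcoplasmic reticulum, at 56.3 FPKM in heart 1, a median of 2000.2 and 15075 in heart 8. Its last exon (mm10, chromosome 4, 53859882 to 53862018) contains an annotated 5S ribosomal RNA gene, n-R5s185, at 53860652 to 53860770. All 119 bases of that RNA occur in the Tmem38b transcript. Reads of 5S ribosomal RNA could therefore be counted for Tmem38b, and the value may not be a level of its mRNA. The part of 5S reads in it was not tested. Hearts 5 to 8 had 2921 to 15075 FPKM and hearts 1 to 4 had 56.3 to 1079 FPKM, without overlap.

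The label of the tissue was borne out by the marker genes of heart muscle. Actc1, the cardiac actin, stood at 3560.4, 4336 and 4729 FPKM as the lowest, median and highest of the 8 hearts, the order used for every run of 3 levels below, and ranked 10 among protein-coding genes. Myh7 and Myh6, the slow and fast cardiac myosin heavy chains, stood at a median of 2723 and 1297 FPKM. Tnnt2, the cardiac troponin T, had 1711 to 2818 FPKM. Nppa, the atrial natriuretic peptide, had 1521 to 3104 FPKM. The lowest value of any of these 5 genes in any heart was 1114 FPKM, against the median of 2.92 FPKM over protein-coding entries. Heart 6 was highest for Actc1, Myh7, Tnnt2 and Myh6, and heart 3 for Nppa.

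All 24 sarcomere genes exceeded 1 FPKM in every heart and 21 had a mean of at least 100 FPKM, with a list median of 1134 FPKM against 2.20 FPKM over all entries. Myl2, the regulatory light chain of ventricular myosin (chromosome 5, 122100980 to 122106854), led them with 9183, 9671 and 11276 FPKM. Its 8 values lay close together, with a coefficient of variation of 7.79%. Tnnc1, the calcium-binding troponin C of heart and slow muscle, varied by 6.22%, Tnni1 by 6.50% and Tnni3 by 6.74%, while Myh7 varied by 25.97%. The lowest of the list was Myom2, an M-band protein gene, at 5.34 ± 1.29 FPKM. Nkx2-5, the cardiac homeobox gene, was counted here through its 2 single exons, which gave 98.1 ± 11.6 CPM (SD, n = 8), between 80.6 and 117.

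Related genes were compared within each heart as the log2 ratio of FPKM + 0.1, with a two-sided exact sign-flip permutation test over the 8 hearts. Its smallest possible p is 0.00781, which is 0.00893 when adjusted over the 16 pairs (Benjamini-Hochberg). Myh7 exceeded Myh6 in 8 of 8 hearts, by 0.91 ± 0.33 on the log2 scale (SD, exact permutation p = 0.00781), with ratios between 1.38 in heart 3 and 2.93 in heart 7. Tnni1, the slow skeletal troponin I that the fetal heart uses, exceeded the cardiac form Tnni3 in every heart by 0.57 ± 0.05. This was the most even of the 16 ratios, at 1.40 to 1.55. Actc1 exceeded the skeletal actin Acta1 by 4.56 ± 0.26, Tnnt2 exceeded the slow skeletal Tnnt1 by 2.67 ± 0.19, and Tnnc1 exceeded the fast skeletal Tnnc2 by 10.85 ± 1.54. The last ratio was lowest in heart 5, at 255.7 against a median of 2485, and Tnnc2 was at 11.7 FPKM there. Atp2a2, the calcium pump of cardiac sarcoplasmic reticulum, exceeded its fast skeletal relative Atp2a1 by 8.26 ± 0.82. Ryr2, the cardiac calcium release channel, exceeded Ryr3 by 3.38 ± 0.40. All of these held in 8 of 8 hearts at the smallest possible p.

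The regulatory light chains divide by chamber, with Myl2 in ventricles and Myl7 mainly in atria at later stages. Myl7 was below Myl2 in 8 of 8 hearts, by 0.95 ± 0.47 (exact permutation p = 0.00781). The ratio of Myl7 to Myl2 ran from 0.247 in heart 7 to 0.690 in heart 1. Among the essential light chains, Myl4, the atrial and fetal form, exceeded the ventricular Myl3 in 7 of 8 hearts by 0.25 ± 0.19 (exact permutation p = 0.0156, adjusted 0.0167). Heart 7 was the exception, with a ratio of 0.875.

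Of 14 atrial genes, 9 had their lowest value in heart 7. Over all protein-coding entries with a mean of at least 1 FPKM, 25.8% were lowest in heart 7. Myl7 had 2785 FPKM in heart 7 and 4799 to 7387 in the other 7 hearts. Nppa had 1521 FPKM there and 2102 to 3104 elsewhere. Both were thus below every other heart, and highest in heart 3. Kcnj3, a subunit of the atrial potassium channel opened by acetylcholine, had 3.47 FPKM in heart 7 and 6.57 to 12.8 elsewhere. Kcna5, the channel of the atrial ultrarapid potassium current, had 2.68 against 4.78 to 8.09. These low values did not extend to the whole list. Smyd2, a methyltransferase gene, was highest in heart 7 at 106 FPKM. Dkk3, a secreted relative of the Wnt antagonists, completed the 5 highest atrial genes at 44.7 ± 5.31 FPKM. The lowest of the atrial list by mean was Nr2f2, a nuclear receptor of atrial identity, at 4.65 ± 1.13 FPKM. The members named for 1 heart, here and below, were chosen after their values were seen, and the pattern was not tested. Bulk RNA cannot tell fewer cells of a type from less RNA per cell.

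The sequences upstream of Nppa and Myl7, both low in heart 7, are shown for the letters near their starts. They are the 250 bases before the RefSeq transcript start (GRCm38.p6, the same assembly as mm10), with matches of the motifs searched on both strands in capitals. The letters searched were the CArG box and the MEF2 site, AGATAA for GATA factors, TNAAGTG for NKX2-5, GGTGTGA for T-box factors, TATAAA for the TATA box, and CCACACCC for Krüppel-like factors.
Nppa (chr4:148000472-148000721, plus strand): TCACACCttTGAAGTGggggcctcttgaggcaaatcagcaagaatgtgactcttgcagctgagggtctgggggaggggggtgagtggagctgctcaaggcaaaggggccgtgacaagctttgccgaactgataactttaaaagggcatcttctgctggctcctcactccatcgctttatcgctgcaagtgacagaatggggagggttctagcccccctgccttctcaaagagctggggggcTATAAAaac
Myl7 (chr11:5898783-5899032, minus strand): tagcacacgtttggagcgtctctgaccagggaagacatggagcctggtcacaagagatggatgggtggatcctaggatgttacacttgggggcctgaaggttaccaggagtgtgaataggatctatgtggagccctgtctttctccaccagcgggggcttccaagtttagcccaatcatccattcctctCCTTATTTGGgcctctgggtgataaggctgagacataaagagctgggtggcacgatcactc
In the Nppa sequence the capitals mark a T-box match on the reverse strand beside an NKX2-5 match, and TATAAA near the start. The start in the deposited annotation lies 24 bases further downstream. In the Myl7 sequence they mark a CArG box, the binding motif of serum response factor. Of 32851 RefSeq promoters of this length, 3.33% held the T-box letters, 10.1% those of NKX2-5, 12.4% TATAAA and 1.47% a CArG box. A match is a description of letters only.

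**Figure D2:**
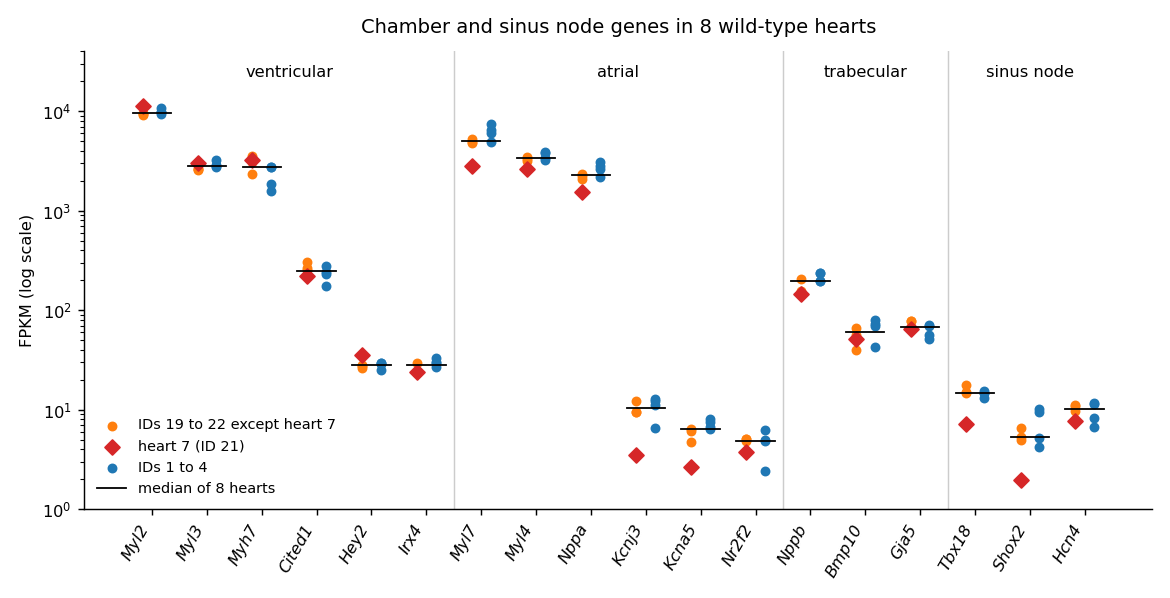
FPKM (log axis) of chamber and sinus node genes in each wild-type heart. Orange points and the red diamond (heart 7) are IDs 19 to 22, blue points are IDs 1 to 4, and the black line is the median of the 8 hearts. Heart 7 is the lowest point for Myl7, Myl4, Nppa, Kcnj3, Kcna5, Nppb, Tbx18 and Shox2 and the highest for Myl2 and Hey2. For Nppb heart 5 is nearly as low, at 146.7 against 146.6 FPKM in heart 7.

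All 15 ventricular genes exceeded 1 FPKM in every heart, with a median of 105 FPKM, and none was listed at 0. After Myl2, Myl3 and Myh7 came Cited1, a transcriptional coactivator, at 247 ± 39.4 FPKM and Smpx, a small muscle protein gene, at 203 ± 11.7. Hey2, the repressor of the compact ventricular wall, exceeded its atrial relative Hey1 in 8 of 8 hearts by 1.48 ± 0.25 (exact permutation p = 0.00781). Irx4, a ventricular homeobox gene, stood at 23.4, 28.2 and 33.1 FPKM. Hand1, a factor of the left ventricle, was the lowest member at 5.51 ± 2.07 FPKM, with hearts 1 and 7 highest. In contrast to the atrial list, 1 of the 15 was lowest in heart 7.

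The trabecular list, whose genes mark the inner ridges of the ventricle, had a median of 33.9 FPKM with all 10 members above 1 FPKM. Nppb, the B-type natriuretic peptide, stood at 147, 197 and 235 FPKM. Nppa exceeded it in 8 of 8 hearts, by 3.63 ± 0.18 (exact permutation p = 0.00781), with ratios of 10.4 to 14.5. Bmp10, the trabecular growth factor, stood at 59.6 ± 14.5 and Erbb2, the coreceptor for neuregulin, at 39.6 ± 2.70 FPKM. The ligand Nrg1, made by endocardium, was lowest at 2.21 ± 0.663 FPKM. Gja5 and Gja1, the connexins of conduction and trabecular muscle and of working muscle, did not differ in 1 direction. Gja1 exceeded Gja5 in 4 of 8 hearts, with a mean log2 ratio of -0.10 ± 0.45 (exact permutation p = 0.547). Gja1 was above Gja5 in hearts 5 to 8 and below it in hearts 1 to 4.

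Among the natriuretic genes, the clearance receptor Npr3 (24.3 ± 2.66 FPKM) was above the guanylyl cyclase receptors Npr2 and Npr1 (8.57 ± 1.08 and 8.49 ± 0.679 FPKM). Furin and Corin, proteases that process the peptides, stood at 20.6 ± 6.29 and 13.1 ± 2.70 FPKM. The C-type peptide Nppc was lowest at 0.781 ± 0.466 FPKM.

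Of 15 conduction and pacemaker genes, 13 had a mean of at least 1 FPKM and 11 reached it in every heart, with a list median of 5.88 FPKM. Id2, an inhibitor of basic helix-loop-helix factors, and Gjc1, a connexin, led with 49.2 and 27.1 FPKM. Smoc2, a matrix protein gene, and Tbx18, a factor of the sinus horns and epicardium, were also among the 5 highest with 15.8 and 14.1 FPKM. Hcn4, the pacemaker channel, stood at 6.73, 10.3 and 11.7 FPKM, with hearts 3 and 7 lowest. Tbx18 and Shox2, which specify the sinus node region, had 7.11 and 1.97 FPKM in heart 7, against 13.1 to 17.8 and 4.26 to 10.1 in the other hearts. The lowest member was Cntn2, a cell adhesion gene of conduction tissue, at 0.297 ± 0.108 FPKM, and Gjd3 was listed at 0 in heart 7.

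The cardiac transcription factors covered a wide range of levels. Tbx20, a repressor and activator in chamber muscle, stood at 169, 197 and 238 FPKM, and the homeodomain-only gene Hopx at 129 ± 15.5 FPKM. Gata4, Srf and Hand2 followed with means of 60.6, 49.6 and 42.2 FPKM. Gata4 exceeded Gata6 in 8 of 8 hearts, by 0.76 ± 0.37 (exact permutation p = 0.00781), and the ratio was lowest, at 1.04, in heart 3. Heart 3 was the lowest heart for 11 of the 21 members measured, and 22.02% of the 12413 protein-coding entries with a mean of at least 1 FPKM were lowest there. Isl1, a factor of second heart field progenitors, was lowest at 1.31 ± 0.744 FPKM, and its highest heart was heart 4 at 3.03.

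In calcium handling, 17 of 18 genes had a mean of at least 1 FPKM, with a median of 41.8 FPKM. Atp2a2 led with 179, 272 and 354 FPKM, followed by its inhibitor phospholamban (Pln, 105 ± 11.2 FPKM). The sodium-calcium exchanger Slc8a1, the junctional protein Jph2 and the calcium store protein Casq2 had 98.7, 94.5 and 89.2 FPKM. Casq1, known as the skeletal calsequestrin, was close to Casq2 at 86.9 ± 12.1 FPKM. The skeletal release channel Ryr1 was lowest at 0.224 ± 0.209 FPKM.

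Of 30 genes of valve and cushion mesenchyme, 29 had a mean of at least 1 FPKM and 6 a mean of at least 100 FPKM. Fibrillar collagens led. Col3a1 stood at 337, 459 and 638 FPKM and exceeded Col1a1 in 8 of 8 hearts by 1.18 ± 0.45 (exact permutation p = 0.00781). Col1a2, the adhesive glycoprotein Fn1, Col1a1 and the matrix gene Fbln2 followed with 254, 248, 218 and 144 FPKM, and Postn, a matricellular protein of maturing cushions, had 141 ± 13.7. Factors of endothelial to mesenchymal transition were much lower, with Twist1 at 9.11 ± 1.83, Snai2 at 4.35 ± 0.918, Snai1 at 3.48 ± 1.57 and Sox9 at 5.49 ± 1.47 FPKM. Of the signals, Tgfb2 stood at 16.2 ± 1.31, Bmp4 at 16.7 ± 2.88 and Bmp2 at 3.76 ± 0.628 FPKM. The hyaluronan synthase Has2 stood at 2.75 ± 0.681, and Msx1 was lowest at 0.683 ± 0.356 FPKM. Msx1 was listed at 0 in heart 7.

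Vcan, the large proteoglycan of the cushions, was listed at 0 FPKM in heart 8 and at 47.5 to 80.2 FPKM in the other 7 hearts. The same heart held 8921 counts for it, so the 0 is not a level of Vcan. Heart 4 was the highest heart for 11 of the 30 cushion genes, among them Col3a1, Tbx2 (10.7 FPKM, against 2.45 to 6.12 elsewhere) and Snai1 (6.84 against 1.85 to 3.99). Heart 7 was the lowest for 11. Over the 12413 protein-coding entries with a mean of at least 1 FPKM, heart 4 was highest for 18.9% and heart 7 lowest for 25.8%.

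Endothelial genes were present at moderate levels, with a list median of 22.2 FPKM, and 21 of 23 reached 1 FPKM in every heart. Egfl7, a secreted endothelial factor, stood at 108, 119 and 155 FPKM. Ramp2, part of the adrenomedullin receptor, had 90.4 ± 14.8 FPKM, Pecam1 51.1 ± 4.89, Tie1 50.5 ± 8.23 and the junctional cadherin Cdh5 46.1 ± 7.18. The tip cell gene Esm1 was lowest at 0.731 ± 0.441 FPKM. In the endocardial list Cdh11 (50.4 ± 5.52 FPKM), Plvap (45.8 ± 8.40), Npr3, Emcn (22.2 ± 6.07) and Tmem108 (13.05 ± 2.15) were the 5 highest. Cdh11 is also made by cushion mesenchyme. Nfatc1, the factor of endocardial cells that form valves, stood at 6.15, 9.67 and 13.04 FPKM. Fmo1 was lowest at 0.373 ± 0.396 FPKM and listed at 0 in heart 7.

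In the coronary, arterial and venous list Fabp4, a fatty acid carrier of capillary endothelium, had the widest range of the 5 highest members, at 19.7 FPKM in heart 1, a median of 61.9 and 118 in heart 7. Gja5, the venous receptor Ephb4, Nrp1 and Unc5b followed with means of 66.9, 54.3, 52.3 and 46.3 FPKM, and Nrp1 varied by 5.25%. Car4, a carbonic anhydrase gene of capillaries, was lowest at 0.823 ± 0.909 FPKM and listed at 0 in hearts 1, 3 and 4. The lymphatic genes Prox1 and Lyve1 stood at 11.3 ± 3.32 and 2.46 ± 0.703 FPKM, and Prox1 is also made by heart muscle.

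Smooth muscle genes were led by Acta2 (483 ± 58.9 FPKM) and Des (468 ± 57.2), both of which fetal heart muscle makes as well. Eln, the elastin of arterial walls, ranged from 74.9 to 428 FPKM, and Tagln and Cnn1 stood at 187 ± 28.9 and 158 ± 28.2. Myh11, the smooth muscle myosin, had 13.8 FPKM in heart 4 and 1.09 to 2.62 in the other 7 hearts. Heart 4 was also highest for Mylk, the kinase of smooth muscle myosin, at 9.88 FPKM against 2.69 to 4.75. Lmod1 was the lowest member at 1.84 ± 0.370 FPKM.

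Epicardial genes were led by the uroplakin Upk3b (45.4 ± 8.11 FPKM) and the keratin Krt19 (44.9 ± 6.68), followed by Krt18, Tcf21 and Aldh1a2 with 23, 22.3 and 16.6 FPKM. Wt1, which marks the layer, stood at 5.13, 7.54 and 10.96 FPKM. Of the 17 genes measured, 8 were lowest in heart 7, where 25.8% of the expressed protein-coding entries were lowest. Among the 8 were Upk3b at 27.8 FPKM against 42.3 to 55.1 elsewhere and Aldh1a2, the retinoic acid synthase, at 9.49 against 15.5 to 24.4. Tcf21, which marks epicardial derivatives inside the wall, was highest in heart 7 at 38.95 FPKM. The lowest member was Dmkn at 0.877 ± 0.724 FPKM, listed at 0 in heart 7.

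Red cell transcripts had the highest FPKM of the nuclear protein-coding genes and also spread widely. By counts the globins took 1.12% of a library on average, against 8.68% for the sarcomere list. Hbb-y, the embryonic beta-type globin of the yolk sac lineage (chromosome 7, 103851754 to 103853207), stood at 9332, 16972 and 35622 FPKM. Hba-a1, an adult alpha globin, stood at 23686, 40669 and 103264 FPKM when its 2 loci were added. Hearts 3, 5 and 7 were the 3 highest for both, and for Alas2, which starts haem synthesis in red cells (176 to 235 FPKM there and 60.1 to 110.1 elsewhere), and for the anion exchanger Slc4a1. Hba-a1 and Hba-a2, and Hbb-b1 and Hbb-b2, are near-identical or overlapping loci with 0 counts in every library, so their FPKM values are uncertain and they are not in the counted globin share. Hba-a2 and the embryonic Hba-x had means of 2402 and 1383 FPKM. Hba-x was below Hba-a1 in 8 of 8 hearts, by 5.11 ± 0.44 (exact permutation p = 0.00781), and Hbb-y exceeded the other embryonic gene Hbb-bh1 in 8 of 8, by 6.36 ± 0.42 (exact permutation p = 0.00781). Hemgn was the lowest member at 0.413 ± 0.216 FPKM, listed at 0 in heart 4, and the erythroid regulator Gata1 stood at 0.963 ± 0.325 FPKM.

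Beta-s, the adult beta globin that RefSeq names Hbb-bs (chromosome 7, 103826523 to 103827928), had counts and could be set against Hbb-y, although reads that it shares with the near-identical Hbb-b1 cannot be told apart. The ratio of counts of Beta-s to Hbb-y was 0.257, 0.206, 0.296 and 0.183 in hearts 5 to 8, and 0.0732, 0.0867, 0.0995 and 0.148 in hearts 1 to 4. The sets did not overlap. This ratio was chosen after its values were seen and carries no test. Neither gene was called between the sets, with log2 differences of 1.53 ± 0.44 (SE) for Beta-s and 0.17 ± 0.38 for Hbb-y (edgeR adjusted p = 0.172 and 0.888). The 250 bases before the start of each are shown because the embryonic and the adult gene lie in 1 cluster on the same strand and their ratio differed between hearts.
Hbb-y (chr7:103853208-103853457, minus strand): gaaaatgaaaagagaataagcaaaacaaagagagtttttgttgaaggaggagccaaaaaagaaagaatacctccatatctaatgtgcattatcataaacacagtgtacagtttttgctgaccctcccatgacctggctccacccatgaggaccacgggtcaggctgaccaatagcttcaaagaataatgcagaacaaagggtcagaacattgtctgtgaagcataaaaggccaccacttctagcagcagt
Beta-s (chr7:103827929-103828178, minus strand): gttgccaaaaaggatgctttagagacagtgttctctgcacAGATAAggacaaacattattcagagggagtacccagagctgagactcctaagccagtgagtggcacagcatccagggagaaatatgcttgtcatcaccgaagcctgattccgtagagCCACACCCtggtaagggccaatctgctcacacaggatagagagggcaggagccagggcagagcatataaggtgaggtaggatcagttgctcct
The capitals in the Beta-s sequence mark the GATA letters, held by 9.99% of the 32851 promoters, and those for Krüppel-like factors, held by 3.20%. None of the motifs searched was found in the Hbb-y window.

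White cell transcripts were low. Of 21 myeloid genes measured, 16 had a mean of at least 1 FPKM, with a list median of 4.22 FPKM. Lyz2, a lysozyme, stood at 18.2, 24.2 and 26.9 FPKM, and can share reads with its copy Lyz1. The complement genes C1qc, C1qb and C1qa of macrophages and the adaptor Tyrobp had 18.1, 17.4, 15.9 and 15.3 FPKM, and Csf1r, the receptor that macrophages need, had 10.1 ± 1.56. Timd4, a marker of resident macrophages, was lowest at 0.105 ± 0.0992 FPKM. Platelet genes were led by Pf4 at 9.04, 12.8 and 23.6 FPKM, followed by Itga2b, Gp9, Tubb1 and Ppbp with 6.40, 5.35, 4.47 and 3.13 FPKM. Among 10 lymphoid and granulocyte genes, S100a9 of granulocytes alone had a mean of at least 1 FPKM (1.95 ± 1.56). Cd79a, S100a8, Mpo and Il7r followed with means of 0.564, 0.483, 0.275 and 0.0883 FPKM.

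Neural transcripts were low apart from a pair that other cells can make. Uchl1, a ubiquitin hydrolase, stood at 31.4, 62.2 and 72.5 FPKM, and Gap43, a growth cone protein, at 12.6, 15.3 and 17.9. Erbb3, the neuregulin receptor of Schwann cell precursors and cushions, Tubb3 and Ngfr came next with 5.40, 4.66 and 3.02 FPKM. Of 25 genes, 8 had a mean of at least 1 FPKM and the list median was 0.492 FPKM. The crest factor Sox10 stood at 0.651 ± 0.453 FPKM, above the list median. Th, the enzyme that starts catecholamine synthesis, stood at 0.291 ± 0.273 FPKM, and the crest factor Foxd3 was lowest at 0.0505 ± 0.0477 FPKM. Heart 4 was the highest heart for 15 of the 25, and for 18.9% of the expressed protein-coding entries. That share covers entries with a mean of at least 1 FPKM, which 8 of the 25 had, so it is not a like background for the rest. Nefl, a neurofilament, had 5.93 FPKM in heart 4 against 0.776 to 2.34 in the other hearts. The summed level of the list was 122 FPKM in heart 4, against 71.4 to 109.8 in the others. This sum averaged 98.5 FPKM over the 8 hearts, of which Uchl1 alone made up 58.1.

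Markers of tissues beside the heart were not spread evenly. The 20 genes of lung, foregut, liver and thymus had a median of 0.443 FPKM, or 0.125 without hearts 2, 4 and 5. Heart 4 was the highest for 9 of them, and for 18.9% of the expressed protein-coding entries. That share covers entries with a mean of at least 1 FPKM, which 4 of the 20 had, so it is not a like background for the rest. The summed level of the list was 31.3 FPKM in heart 4, against 4.46 to 21.1 FPKM in the other 7 hearts. Cldn6, a tight junction gene of embryonic epithelium, had 5.95 FPKM in heart 4 and at most 0.747 elsewhere, and Epcam, of epithelia, 5.22 against at most 0.313. Sox2, of foregut endoderm, stood at 4.84 against at most 0.792 FPKM, and Foxf1, of lung and gut mesenchyme, at 3.38 against 0.0944 to 0.412. The highest means in the list were those of Afp and Alb, proteins of fetal liver and yolk sac, at 2.29 and 2.23 ± 0.521 FPKM, followed by Apoa1, Nkx2-1 and Ttr with 1.48, 1.44 and 0.904 FPKM. Afp stood at 8.91 FPKM in heart 1 and was listed at 0 in heart 7. The thymus factor Foxn1 was lowest at 0.0301 ± 0.0740 FPKM.

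Skeletal muscle and cartilage genes were led by Ckm, the muscle creatine kinase, at 147 ± 29.6 FPKM and Tnni2 at 53.3 ± 6.92, followed by Mylpf, Col9a1 and Tnnt3 with 11.6, 10.4 and 7.40 FPKM. Heart 5 was highest for 9 of 21, and for 7.62% of the 12413 protein-coding entries with a mean of at least 1 FPKM. Of the 21, 12 had such a mean. Mylpf, the fast skeletal light chain, had 40.6 FPKM in heart 5 and 5.59 to 8.82 in the other 7 hearts, and embryonic myosin Myh3 had 11.99 against 0.166 to 0.853. The factors that make skeletal muscle, Myog and Myod1, had 3.79 and 1.58 FPKM in heart 5 and at most 1.40 and 0.220 elsewhere. Myf6 was the lowest member at 0.0311 ± 0.0662 FPKM. In heart 5 the summed level of the list was 313 FPKM, against 173 to 276 in the others. This sum averaged 246 FPKM over the 8 hearts, of which Ckm alone made up 147. Whether neighbouring tissue in hearts 4 and 5 contributed to their other values was not tested.

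All 18 proliferation genes exceeded 1 FPKM in every heart, with a median of 47.5 FPKM. Pcna, the clamp of replicating DNA, led with 100.4, 135 and 157 FPKM, and Mcm2, Top2a, Ccnb1 and Mcm3 followed with 68.5, 64.4, 59.1 and 55.5 FPKM. The mitotic kinase gene Bub1 was lowest at 5.19 ± 0.769 FPKM. The heart medians lay between 42.1 and 54.0 FPKM. The summed level of the list was 768 to 815 FPKM in hearts 5 to 8 and 932 to 959 FPKM in hearts 1 to 4, without overlap, a comparison chosen after its values were seen and not tested.

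**Figure D3:**
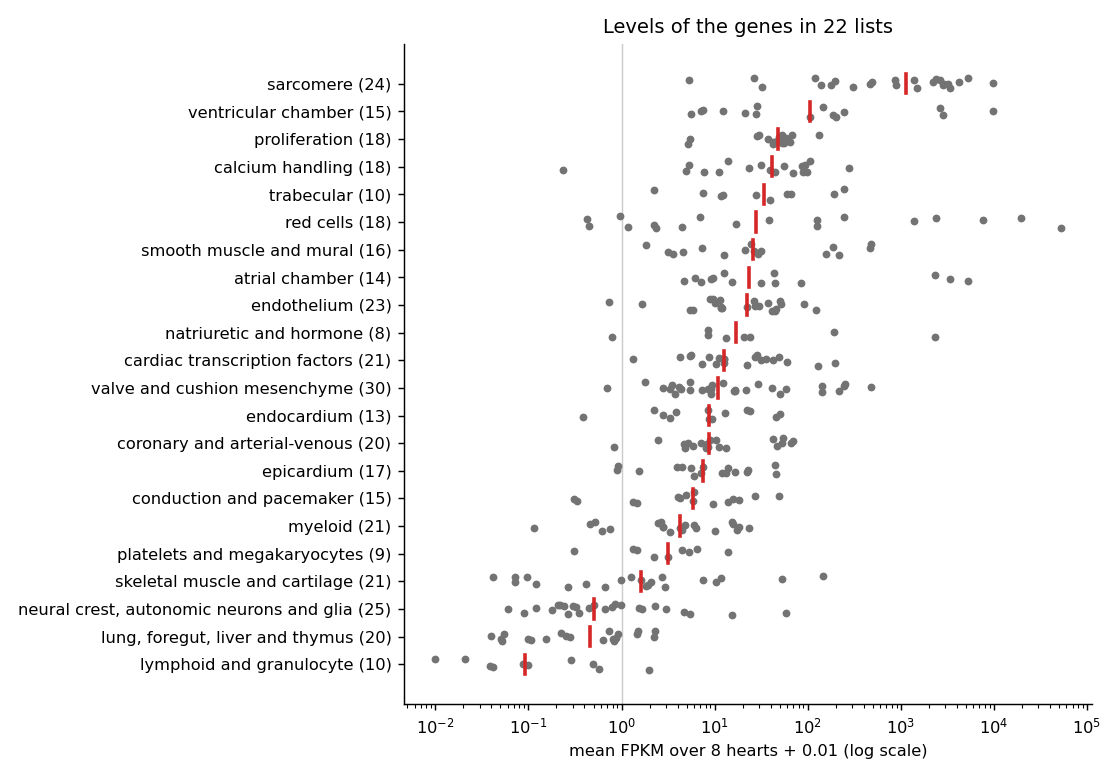
Mean FPKM over the 8 hearts plus 0.01 (log axis) of each measured gene (grey points) in 22 lists, with the number of genes in brackets and the list median as a red line. The sarcomere list lies highest with a median of 1134 FPKM, and the lymphoid, foregut and neural lists have medians under 1 FPKM, marked by the grey line.

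Deviations of whole lists by heart were largest outside heart muscle, but the lists also differ in level. The lung, foregut, liver and thymus list had a median of 0.443 FPKM, with 16 of 20 genes at 0 in some heart. The median of the sarcomere list was 1134 FPKM. Near 0 FPKM a few counts can move this measure, and the part of level and depth in the deviations was not tested. The mean log2 difference of a list from its 8-heart mean stayed between -0.08 and 0.09 for the sarcomere and between -0.10 and 0.04 for calcium handling. For the lung, foregut, liver and thymus list it ran from -0.90 in heart 7 to 1.39 in heart 4, and for red cells from -0.69 in heart 4 to 0.73 in heart 5. The conduction list was at -0.60, the atrial list at -0.41 and the epicardial list at -0.38 in heart 7. Heart 8 was at -0.32 for the cushion list, and at -0.04 when Vcan was left out. Lists share some genes, so these rows are not independent.

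**Figure D4:**
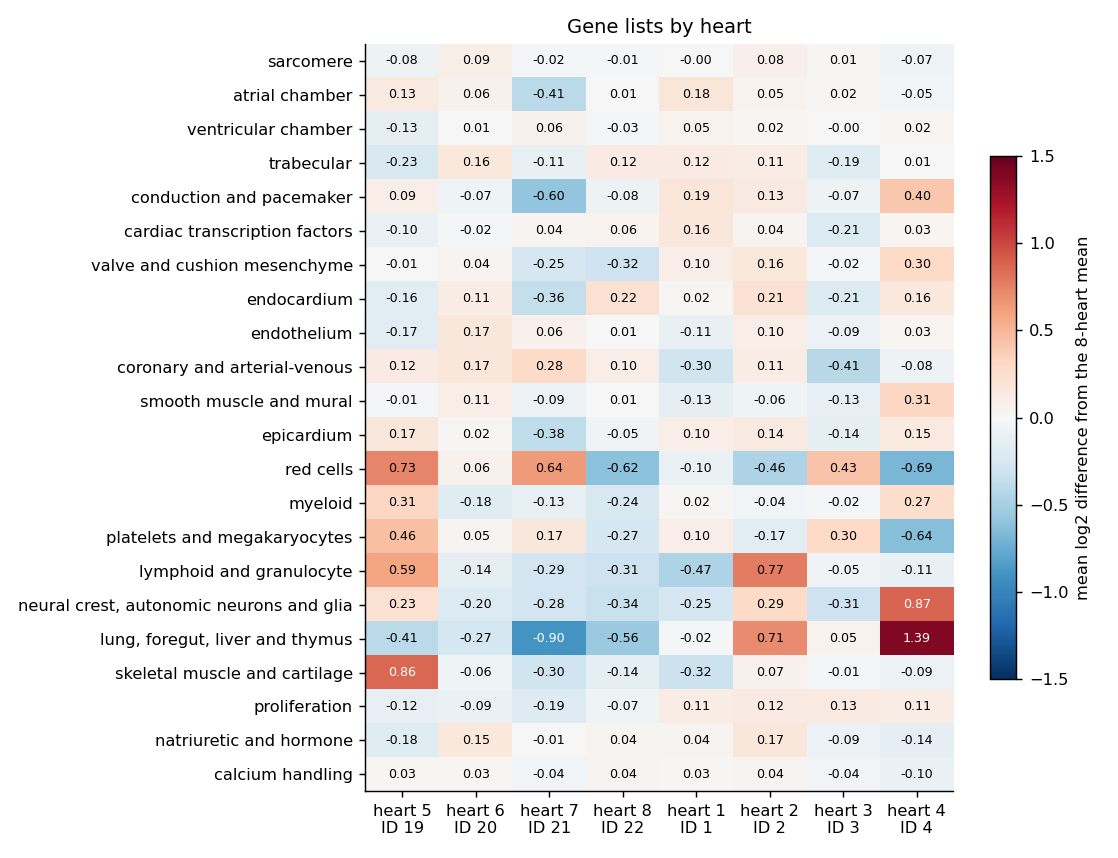
Mean log2 difference of each gene list from its mean over 8 hearts, on log2(FPKM + 0.1), for 22 lists (rows) and 8 hearts (columns, hearts 5 to 8 left of hearts 1 to 4). Red is above and blue below the mean. Heart 4 stands out for the lung, foregut, liver and thymus list (1.39) and the neural list (0.87), heart 5 for skeletal muscle and cartilage (0.86), and heart 7 is low for the atrial, conduction and epicardial lists. The lung and neural lists have medians under 1 FPKM, where a few counts can move the value.

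The spread between hearts was estimated from counts with edgeR. The common biological coefficient of variation, the relative spread of true levels between libraries beyond counting error, was 0.178 over 13514 genes. The trend lay at 0.350 for the genes with the fewest counts and 0.184 for those with the most. It was lower between these ends, for example 0.144 at the 6.44 log2 CPM of Dyrk1a. Among the 8464 genes that averaged 4 log2 CPM or more the median was 0.140, with 10% below 0.116 and 10% above 0.194, and 35 genes exceeded 0.4. These values per gene are estimates that edgeR draws toward the trend, so the lowest of them do not give a gene's own spread. By this measure the steadiest were Ercc2, a DNA repair helicase gene, Mpi, a sugar isomerase gene, and Dyrk1a, a kinase gene, at 0.102 each. Kif16b, Map1lc3b, Slc29a1, Txnl4a and Mxra8 followed at 0.103. Ercc2 ran only from 47.3 CPM in heart 7 to 52.4 CPM in heart 1. The matrix receptor gene Mxra8 stood at 23.6, 25.4 and 25.9 FPKM.

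Of the 15 most variable named genes at that level, 14 are described. In mt-Td, a mitochondrial tRNA gene (1.14), Tmem38b (1.01), Rps16 (0.652), mt-Rnr2 (0.523) and the tetraspanin gene Cd9 (0.460) hearts 5 to 8 did not overlap with hearts 1 to 4. These genes were chosen for their spread in the same hearts, which favours such a split. The share of all genes that split this way was not counted, for these or for the other splits between the sets described here. The subunit genes of respiratory complex I mt-Nd4 (0.537), mt-Nd2 (0.532), mt-Nd6 (0.522) and mt-Nd5 (0.498) were high in hearts 1, 2 and 4. Beta-s (0.561) was highest in hearts 5 and 7, which are among the 3 with the most globin. Myh11 (0.688) was high in heart 4. Grk4 (0.557) and Cmah (0.462) were high in heart 2, at 70.7 and 17.04 FPKM against at most 21.2 and 5.45 elsewhere. Rprl3 (0.739), an RNase P RNA-like gene highest in heart 4, can share reads with its relatives and is uncertain. Xist and the Y-linked genes, left out of this choice, varied more than most of them (Xist 0.797).

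**Figure D5:**
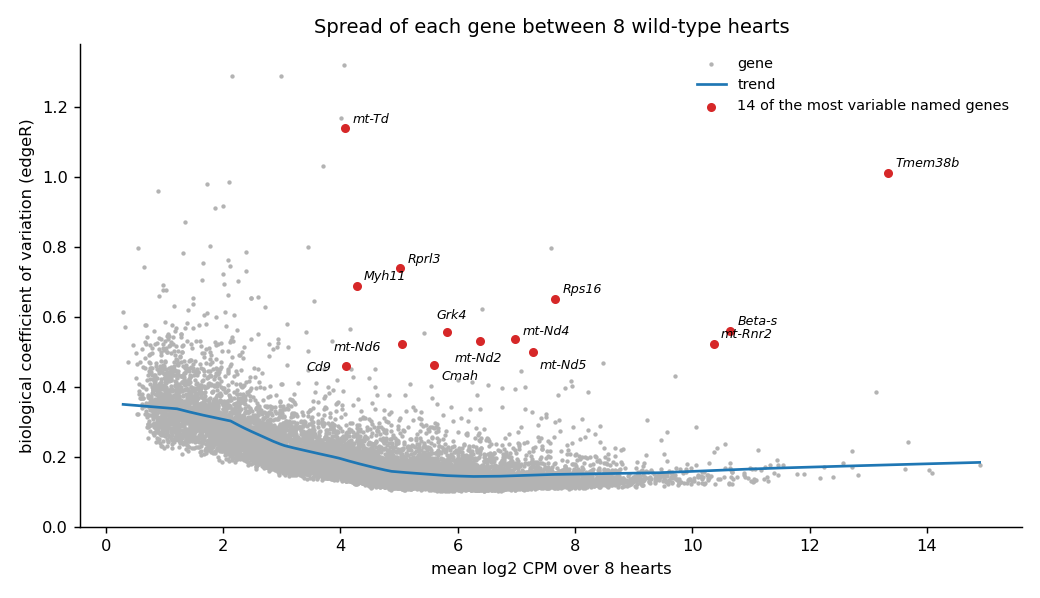
Biological coefficient of variation of each of 13514 genes (edgeR, grey points) against its mean log2 CPM over the 8 hearts, with the fitted trend in blue and 14 of the 15 most variable named genes averaging 4 log2 CPM or more in red. Most genes at that level lie between 0.116 and 0.194, and Tmem38b lies at 1.01 beside the most abundant genes. The values per gene are estimates that edgeR draws toward the trend.

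Libraries with IDs 19 to 22 were set against those with IDs 1 to 4, to see how far a set of libraries of 1 genotype differs. The labels do not say what the IDs mark. In edgeR's quasi-likelihood test 73 of 13514 genes (0.54%) passed an adjusted p of 0.05, with 38 (0.281%) higher and 35 (0.259%) lower in IDs 19 to 22, and 1598 had an unadjusted p under 0.05. DESeq2 called 197 and limma on log2 FPKM 17, and edgeR called 117 without heart 4 and 40 without heart 6. The lower ones were mostly small or mitochondrial RNAs, with 13 small nucleolar RNAs, 9 mitochondrial tRNAs and 7 mitochondrial mRNAs. The other 6 were 3 nuclear protein-coding genes, 1 long noncoding RNA, 1 RNase P RNA and 1 gene with no biotype match. The higher ones were 36 protein-coding genes, mt-Rnr2 and a long noncoding RNA. Of all genes in the lists, Eln, Afp and the pair gene Gja1 passed.

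The largest decreases were those of mt-Td at 0.529 ± 0.181 CPM in IDs 19 to 22 and 34.97 ± 15.3 in IDs 1 to 4 (SD, n = 4 each, log2 difference -5.98 ± 0.38 SE, edgeR adjusted p = 6.12e-07). Snora75 (-4.15), mt-Tg (-3.74), mt-Tv (-3.49) and Snord34 (-3.10) followed. Hearts 5 to 8 lay below hearts 1 to 4 for each of them, which were chosen for their difference between the sets. Afp fell as well, to 0.479 ± 0.330 CPM in IDs 19 to 22 against 8.67 ± 6.23 in IDs 1 to 4 (-3.95 ± 0.56, edgeR adjusted p = 0.00222). The summed level of its list was 4.46 to 6.88 FPKM in IDs 19 to 22 and 14.5 to 31.3 FPKM in IDs 1 to 4, and the part of neighbouring tissue in the Afp result was not tested.

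Among the increases, Tmem38b (4.02 ± 0.70, edgeR adjusted p = 0.0104) holds the 5S ribosomal RNA gene. Rps16, a ribosomal protein gene, rose to 335 ± 78.7 CPM in IDs 19 to 22 against 68.6 ± 52.7 in IDs 1 to 4 (2.31 ± 0.39, edgeR adjusted p = 0.00899). Mt-Rnr2, the large mitochondrial ribosomal RNA, rose by 1.76 ± 0.31 (edgeR adjusted p = 0.0128) while 7 mitochondrial mRNAs fell. The libraries were depleted of ribosomal RNA, so counts of mt-Rnr2 may not give its level in the hearts. The part of the depletion in this difference was not tested. Elastin rose to 1215 ± 318 CPM in IDs 19 to 22 against 453 ± 218 in IDs 1 to 4 (Eln, 1.43 ± 0.26, edgeR adjusted p = 0.0130), with heart 4 at 764 and heart 5 at 932 as the nearest values across the sets. Txn2, a mitochondrial thioredoxin, rose by 1.29 ± 0.19 (edgeR adjusted p = 0.00334). Gja1 rose to 282 ± 35.1 CPM in IDs 19 to 22 against 140.1 ± 38.1 in IDs 1 to 4 (1.01 ± 0.17, edgeR adjusted p = 0.00692). The core markers did not pass. Their log2 differences were 0.56 ± 0.19 for Myh7, 0.39 ± 0.13 for Tnnt2, -0.33 ± 0.15 for Nppa and 0.04 ± 0.17 for Myh6 (edgeR adjusted p = 0.246, 0.246, 0.398 and 0.939).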

How the data were processed

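Whole-heart RNA was sequenced, and the 8 wild-type libraries were described without the other genotypes. Per the submitters' processing notes, which name TopHat2 2.0.10, Bowtie2, Cufflinks 2.1, HTSeq and mm10, the authors deposited a table of FPKM per transcript group and a table of raw counts per gene. How reads shared by several genes were treated is not given in the sources used here. FPKM holds no read number, so the precision of each level was taken from the spread of 8 hearts and from the counts. Low FPKM values of exactly 0 can be failed estimates.

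FPKM entries of 1 gene name were summed for the levels of named genes, pairs and lists. They were kept apart, as 23880 entries, for numbers of entries, correlations between hearts and medians over entries. The 59 single-exon and Cre features were left out, and 23453 counted genes were used. Of 23400 names, 23264 matched a biotype in the RefSeq table. Log values used log2(FPKM + 0.1). Counts were tested with edgeR 4.0.16 (R 4.3.3, TMM scaling, quasi-likelihood F-test, at least 10 counts in enough libraries and 15 in all), with DESeq2 1.42.0 and limma 3.58.1 as alternatives. Replicate hearts are separate samples per the label only, so p-values reflect the differences among these libraries, part of which may be technical. Within-heart ratios were tested by exact sign flips in Python 3.11.15. Counts were also simulated for 13352 genes of the ID set comparison. Of genes changed 1.5-fold, 2-fold, 3-fold and 4-fold, 36%, 82%, 96% and 98% were recovered, with 10 false among 166 calls. The changed genes were drawn from those with a mean above 2 CPM, so recovery at lower levels was not measured.

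The genes and lists were chosen with earlier results of these data known. Named genes were the 20 nuclear protein-coding genes and 8 entries of any kind with the highest mean FPKM, the 5 highest members and the lowest of each list and any at 0 throughout, all genes of the 16 pairs, the 15 highest and 8 lowest in variation among genes of at least 4 log2 CPM (without Xist, Tsix, Y-linked genes and unnamed gene models), and the 6 largest differences in each direction between ID sets. A few of the genes this rule selects are not reported here. Others were chosen after their values were seen. Of the listed genes, 8 matched no entry, namely Nkx2-5 (present as exons), Muc16, Hbb-bt, Hbb-bs (present as Beta-s), Epb42, Ahsp, Adgre1 and Cnmd. Promoter sequences are RefSeq's, on GRCm38.p6. The alternatives were other scalings, tools, filters, pseudocounts and units, each heart left out, and hearts 2, 4 and 5 left out, the last chosen after seeing the data.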

Additional observations from a re-analysis of the deposited data

Results flagged for a closer look

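A heart was counted as standing far from the other 7 when its gap to the nearest of them exceeded Dixon's 95% limit for 8 values, as a share of the whole range. Of 203 genes checked, 39 met this. For normally distributed values chance alone gives about 1 in 20. Some of the genes checked were chosen for their spread in these same data, and some lie near 0 FPKM. The 39 therefore cannot be set against that share, and single cases carry little weight. No explanation was tested.

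Heart 4 was far above the others for 12 genes. These were genes of epithelium and neighbouring mesenchyme, Cldn6 (5.95 FPKM), Epcam (5.22), Sox2 (4.84) and Foxf1 (3.38), the smooth muscle genes Myh11 (13.8) and Mylk (9.88), the neurofilament gene Nefl (5.93), the factors Tbx2 (10.7), Snai1 (6.84) and Isl1 (3.03), Fmo1 (1.26) and the RNA gene Rprl3 (2949). In this shallowest library Fmo1 rested on 11 counts, Isl1 on 29, Foxf1 on 31 and Cldn6 on 32.

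Heart 5 was far above the others for the skeletal muscle genes Mylpf (40.6 FPKM), Myh3 (11.99), Tnnc2 (11.7), Myog (3.79), Myod1 (1.58), Ryr1 (0.709) and Myf6 (0.185, from 2 counts), and far below them for Pecam1 (40.9). Heart 2, with its many weakly counted genes, was far above for Grk4 (70.7 FPKM), Cmah (17.04), Nkx2-1 (3.48), Il7r (0.701) and Foxn1 (0.212, from 3 counts). Heart 1 was far above for Igf2 (1107 FPKM), Afp (8.91) and Apoa1 (5.10).

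Heart 7 was far above for Smyd2 (106 FPKM) and Hey2 (35.2) and far below for Upk3b (27.8), Tbx18 (7.11) and Tubb3 (2.05). Myl7, Nppa and Kcna5 were lowest in heart 7 without passing this limit. Heart 3 was far above for Tnni1 (2513 FPKM) and Hbb-bh1 (565) and far below for Gata4 (40.6). Heart 8 was far above for Tmem38b (15075 FPKM) and far below for Mxra8 (23.6), whose 8 values lie within a narrow range, and for Vcan, listed at 0 FPKM with 8921 counts.

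The count table also holds a feature for the Cre transgene, which these hearts do not carry by label. It had 20 counts in all, in 6 of the 8 hearts and at most 7 in any of them.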

How the results depend on the processing

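No paired analysis was possible because no replicate number occurs in both library ID sets, and no genotypes are compared. The number of genes called between IDs 19 to 22 and IDs 1 to 4 (73 of 13514) was 402 with no filter on low counts, 197 with DESeq2, 17 with limma on log2(FPKM + 0.1), 233 without hearts 2, 4 and 5 (chosen after seeing the data), and 40 to 117 with 1 heart left out, lowest without heart 6 and highest without heart 4. The cause of these moves was not tested. The common biological coefficient of variation (0.178) was 0.189 with no filter, 0.160 with the ID set as a term, 0.190 without hearts 2, 4 and 5, and 0.164 to 0.186 with 1 heart left out. RLE scaling left both values at 73 and 0.178. The share of the 25 most counted genes (18.2%) was 13.2% over protein-coding genes, by construction, and 17.9% to 18.4% with 1 heart left out. The number of entries of at least 1 FPKM (13595) was 13436 from counts scaled to TPM, 12023 when every heart had to reach it, and 13518 to 13615 with 1 heart left out. The 16 gene pairs kept direction and side of the threshold with a pseudocount of 1 and with each heart left out, and 15 did so on counts per kilobase, where the Hba-x and Hba-a1 pair gave no value. Of the list medians, 17 moved by more than the spread between hearts when taken from counts (the median log2 ratio of FPKM to TPM was -0.48), among them that of red cells, at 3.18 TPM against 27.6 FPKM, where several globins have 0 counts. In IDs 19 to 22 alone the medians of endothelium (18.5 FPKM) and of lung, foregut, liver and thymus (0.106) moved, and in IDs 1 to 4 alone that of skeletal muscle and cartilage (0.921). Depth limits the least abundant genes, at a floor of 0.214 to 0.782 CPM.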
